A study of Monodelphis domestica and Mus musculus with 2 samples.

Results

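The genes described here are Neurod1, Neurod2, Neurod6, Mef2a, Mef2c and Mef2d, 6 transcription factor genes that were taken by their symbols from the feature lists of a Stereo-seq study of the primary visual cortex (V1). They are 6 of 30613 opossum features and 6 of 61317 mouse features, and each symbol belongs to 1 feature in each species. The opossum features are, in the order above, ENSMODG00000010392, ENSMODG00000012777, ENSMODG00000013299, ENSMODG00000012725, ENSMODG00000020223 and ENSMODG00000016861. The mouse features are ENSMUSG00000034701, ENSMUSG00000038255, ENSMUSG00000037984, ENSMUSG00000030557, ENSMUSG00000005583 and ENSMUSG00000001419. In Stereo-seq, RNA with a poly(A) tail is caught where it lies, by barcoded spots under a thin section, and is counted as unique molecular identifiers (UMIs) in the cells outlined there. The opossum group was a male gray short-tailed opossum (Monodelphis domestica) of 6 months, and the mouse group was a male wild-type C57BL/6J mouse of about postnatal day 40. No agent, transgene or deletion was named for either. Each species was represented by 1 animal and 1 section of 10 µm. The section was cut from a block holding more than 1 coronal slice. A figure legend of the paper takes the 3 opossum and the 4 mouse regions from more than 1 section in each species. Which slice each region came from was not used here. The 3 opossum and 4 mouse V1 regions are parts of the same brain and not replicates, and no test was made. Values are UMIs per 10000 UMIs of the same cells, and intervals are 95% and cover counting error only.

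NeuroD proteins are basic helix-loop-helix (bHLH) activators that bind the E-box, CANNTG, as partners of the E proteins encoded by Tcf3, Tcf4 and Tcf12. Neurod2 and Neurod6 are known from postmitotic glutamatergic neurons of the cortex and hippocampus, whereas Neurod1 is known from newborn neurons, hippocampal granule cells and pancreatic endocrine cells. MEF2 proteins are MADS-box factors that bind A/T-rich sites. Class IIa histone deacetylases hold them in a repressive state, calcineurin and the kinases p38 and ERK5 activate them, and they tie neuronal activity to the number of synapses.

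In GRCm39 with the GENCODE annotation, all 6 mouse genes were protein-coding. Neurod1 lay at chr2:79282865-79287294, Neurod2 at chr11:98216241-98220480 and Neurod6 at chr6:55654807-55658326, all on the minus strand. Mef2a lay at chr7:66880911-67022606 on the minus strand, Mef2c at chr13:83652064-83815555 and Mef2d at chr3:88049185-88079398, both on the plus strand. Neurod1 overlapped Cerkl on the same strand, Mef2a overlapped Gm44667 and Gm44668 on the same strand, and each of the 6 had at least 1 antisense neighbor. Whether counting used the strand was not given in the sources used here. The 250 bases before the start of the canonical transcript of each NeuroD gene held CAGATG, the E-box variant best known for NeuroD binding, exactly 1 time, searched on both strands. Of 21770 protein-coding promoters of that length, 12.98% held it. The matches of Neurod2 and Neurod6 lay in exons of the antisense genes Gm71805 and Gm3279, and that of Neurod1 in no annotated exon. The 3 stretches of 30 bases around these matches are shown because they are the sequence feature that the NeuroD genes had in common, with CAGATG in capitals and each read 5′ to 3′ on the strand of its gene.
Neurod1, chr2:79287312-79287341, minus strand: tctaactggcgaCAGATGggccactttctt
Neurod2, chr11:98220572-98220601, minus strand: agtagagagtgaCAGATGgcggcgggtccc
Neurod6, chr6:55658483-55658512, minus strand: ttccctggtaccCAGATGcaccaggaggag
The capitals began 231 bases before the canonical transcript start of Neurod1, 109 before that of Neurod2 and 174 before that of Neurod6. The canonical transcript of Neurod1 starts inside the annotated gene, so its window lay partly in exons of other transcripts of Neurod1 and of Cerkl. Each of these windows held 3 matches to CANNTG in all, of which CAGATG is a special case, and 64.8% of all promoters held at least 1. The windows of Mef2a, Mef2c and Mef2d held no CANNTG, and none of the 6 held the MEF2 consensus, which 2.793% of promoters held. The canonical transcripts of Mef2c and Mef2d also start inside their annotated genes, so these windows lay within the genes. That of Mef2c overlapped an exon of Mef2c. These are matches of letters in the reference, not binding measured here.

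V1 cells that passed the authors' filter numbered 4806 in the opossum, with 6933475 UMIs, and 9127 in the mouse, with 12522687 UMIs. The median was 1326 and 1305 UMIs per cell. Subclass labels came from a nearest-neighbor comparison of each cell's whole transcriptome with an atlas, so the 6 genes had a part in them, while position had none. The labelled classes stood apart by their glial and GABAergic markers but hardly, between glutamatergic and non-neuronal cells, by their glutamatergic ones. In the opossum, Nrgn and Slc17a6 together reached 51.5 UMIs per 10000 in glutamatergic cells and 50.4 in non-neuronal cells. In the mouse, 4 glutamatergic markers reached 39 and 38.4. Opossum GABAergic cells were lower at 39.4, and mouse GABAergic cells at 32.4. Where the class and subclass labels of opossum cells matched, Nrgn stood at 49.99 in glutamatergic and 31.3 in GABAergic cells, 1.60-fold (1.52 to 1.68). Against non-neuronal cells with matching labels, at 45.7, the Nrgn ratio was 1.09-fold (1.06 to 1.13). Whether the UMIs in a cell of a given label were expressed in that cell was not tested, and levels are given by label only.

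Over all V1 cells of the opossum, Mef2c stood at 9.33 UMIs per 10000 (9.11 to 9.56), with 9.10, 9.82 and 8.79 in the 3 regions. Mef2d stood at 4.19 (3.90 to 4.99 across regions), Neurod6 at 2.23 (1.96 to 2.43), Mef2a at 1.88 (1.81 to 1.97) and Neurod2 at 1.02 (0.983 to 1.03). Neurod1 was close to the limit of detection in opossum V1, with 35 UMIs in all and 0.0505 UMIs per 10000 (0.0352 to 0.0702). In the mouse, Mef2c stood at 6.43 (6.29 to 6.58), with 6.11, 6.67, 6.75 and 6.52 in the 4 regions. Mouse Mef2d stood at 2.46 (2.36 to 2.67 across regions), Neurod6 at 1.27 (1.18 to 1.34), Neurod2 at 1.12 (0.894 to 1.28) and Neurod1 at 0.228 (0.208 to 0.255). Mouse Mef2a stood at 1.16, with an interval of 1.1 to 1.22 and its lowest region at 0.981. For Neurod6, Mef2a, Mef2c and Mef2d the opossum regions all lay above the mouse regions, for Neurod1 below them, and for Neurod2 the ranges overlapped. Species, age, RNA integrity (7.1 for the opossum block, above 9 for the mouse block) and annotation changed together between the sections and cannot be told apart.

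**Figure D1:**
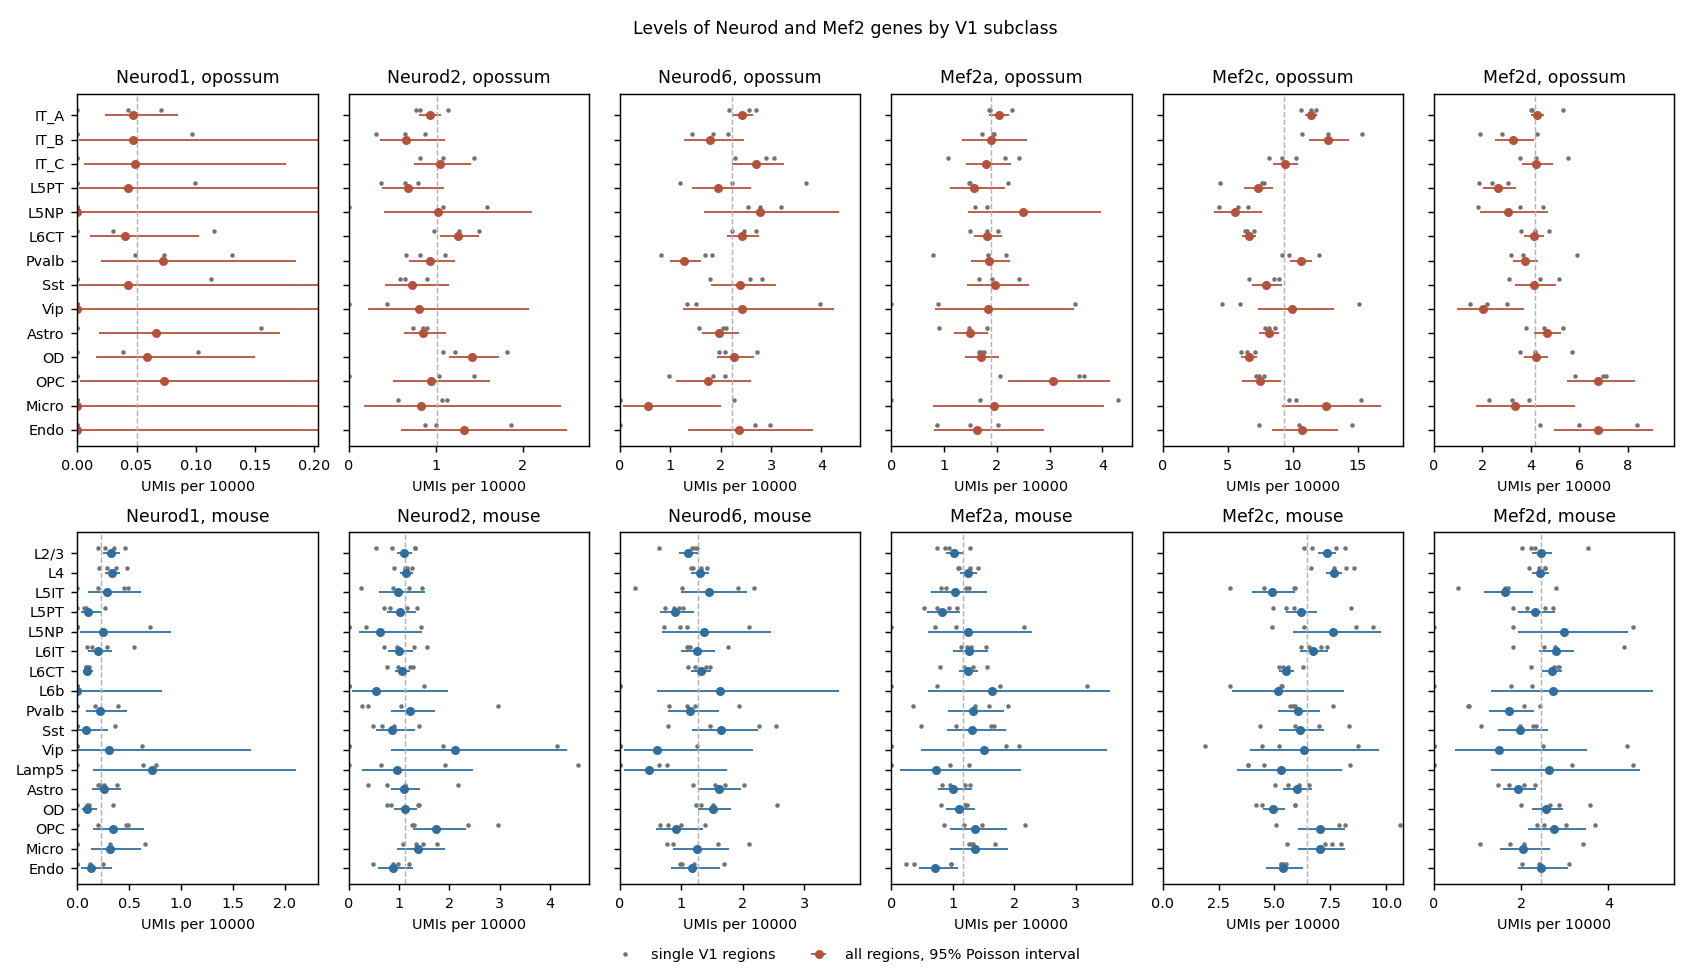
Levels of the 6 genes in UMIs per 10000 (horizontal axis) by V1 subclass (vertical axis), opossum above and mouse below. Large points with bars are all regions with the 95% Poisson interval, cut at the panel edge where it is wider, small grey points are single V1 regions, some of which also lie past the edge, and the dashed line is the level over all V1 cells. Opossum Mef2c runs from 5.56 in L5NP to 12.7 in IT_B, while mouse Neurod1 is 0.331 in L4 and 0.0951 in L6CT.

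Glutamatergic cells were then compared with the other classes, by label. None of the genes tested reached 1.5-fold in either direction between glutamatergic and non-neuronal cells, in either species. At least 50 UMIs over both groups were required, which 5 of the genes met in the opossum and 6 in the mouse. Among all genes tested, 23.7% in the opossum and 12.2% in the mouse reached 1.5-fold. The largest ratio among the genes tested was that of opossum Mef2c, with 9.83 UMIs per 10000 in glutamatergic and 7.62 in non-neuronal cells, 1.29-fold (1.21 to 1.38), above 1 in 3 of 3 regions. Mouse Mef2c stood at 6.78 against 5.74, 1.18-fold (1.11 to 1.26), above 1 in 4 of 4 regions. Opossum Mef2d lay on the other side, with 4.07 against 4.72, 0.862-fold (0.790 to 0.942), but below 1 in only 2 of the 3 regions, as region 3 stood at 1.01. The glutamatergic markers hardly parted these classes either. In the opossum 0 of 2 passed 1.5-fold (median 0.959-fold), and in the mouse 1 of 4 (median 1.04-fold). The comparison therefore cannot tell how far the 6 genes kept to excitatory neurons.

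Between glutamatergic and GABAergic cells again none of the genes reached 1.5-fold, where 21.1% of all genes tested did in the opossum and 23.1% in the mouse. Opossum Neurod6 came nearest, with 2.40 UMIs per 10000 in glutamatergic and 1.66 in GABAergic cells. This was 1.44-fold (1.21 to 1.73), and the regions gave 1.21, 1.81 and 1.35. Mouse Neurod6 stood at 1.23 in glutamatergic cells, 0.987-fold (0.779 to 1.27) of the GABAergic level, with regions on both sides of 1. Mouse Mef2d stood at 2.52 against 1.94, 1.30-fold (1.08 to 1.58), above 1 in 4 of 4 regions. Opossum Mef2c was level between both classes at 9.83 and 9.82, 1.00-fold (0.930 to 1.08). Of the glutamatergic markers, 0 of 2 passed 1.5-fold here in the opossum and 1 of 4 in the mouse. The GABAergic markers passed downward, 5 of 5 in the opossum and 6 of 6 in the mouse.

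Of the cells with a GABAergic subclass in the opossum, only 321 of 591 also carried a GABAergic class label, and of those with a non-neuronal subclass 649 of 1257 carried a non-neuronal class label. With cells whose 2 labels matched, 2 of the NeuroD genes passed 1.5-fold between glutamatergic and GABAergic opossum cells, where 26.8% of all genes did. Neurod6 stood at 2.40 against 1.17 UMIs per 10000, 2.05-fold (1.59 to 2.69), with 1.60, 2.23 and 3.30 in the 3 regions. Neurod2 stood at 0.993 against 0.650, 1.53-fold (1.08 to 2.22), with 1.65, 1.41 and 1.78. In the same cells Gad1, which encodes a GABA-synthesizing enzyme, stood at 1.96 in glutamatergic and 11.7 in GABAergic cells. The 3 Mef2 genes stayed between 0.992-fold (Mef2a) and 1.14-fold (Mef2d). In the mouse, where 356 of 409 GABAergic cells matched, no gene of the 6 passed (background 24.9%), and Neurod6 stood at 1.01-fold (0.785 to 1.32) and Neurod2 at 0.976-fold (0.749 to 1.29). Gad1 stood at 1.79 in glutamatergic and 4.99 in GABAergic cells there, 0.360-fold, where the opossum ratio was 0.168-fold. The matched classes thus stood less apart in the mouse, and a difference of the species in Neurod6 or Neurod2 was not tested. Against non-neuronal cells with matching labels no gene passed in either species (background 27.7% in the opossum and 13.5% in the mouse). Opossum Neurod6 was 1.48-fold (1.23 to 1.78) there.

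**Figure D2:**
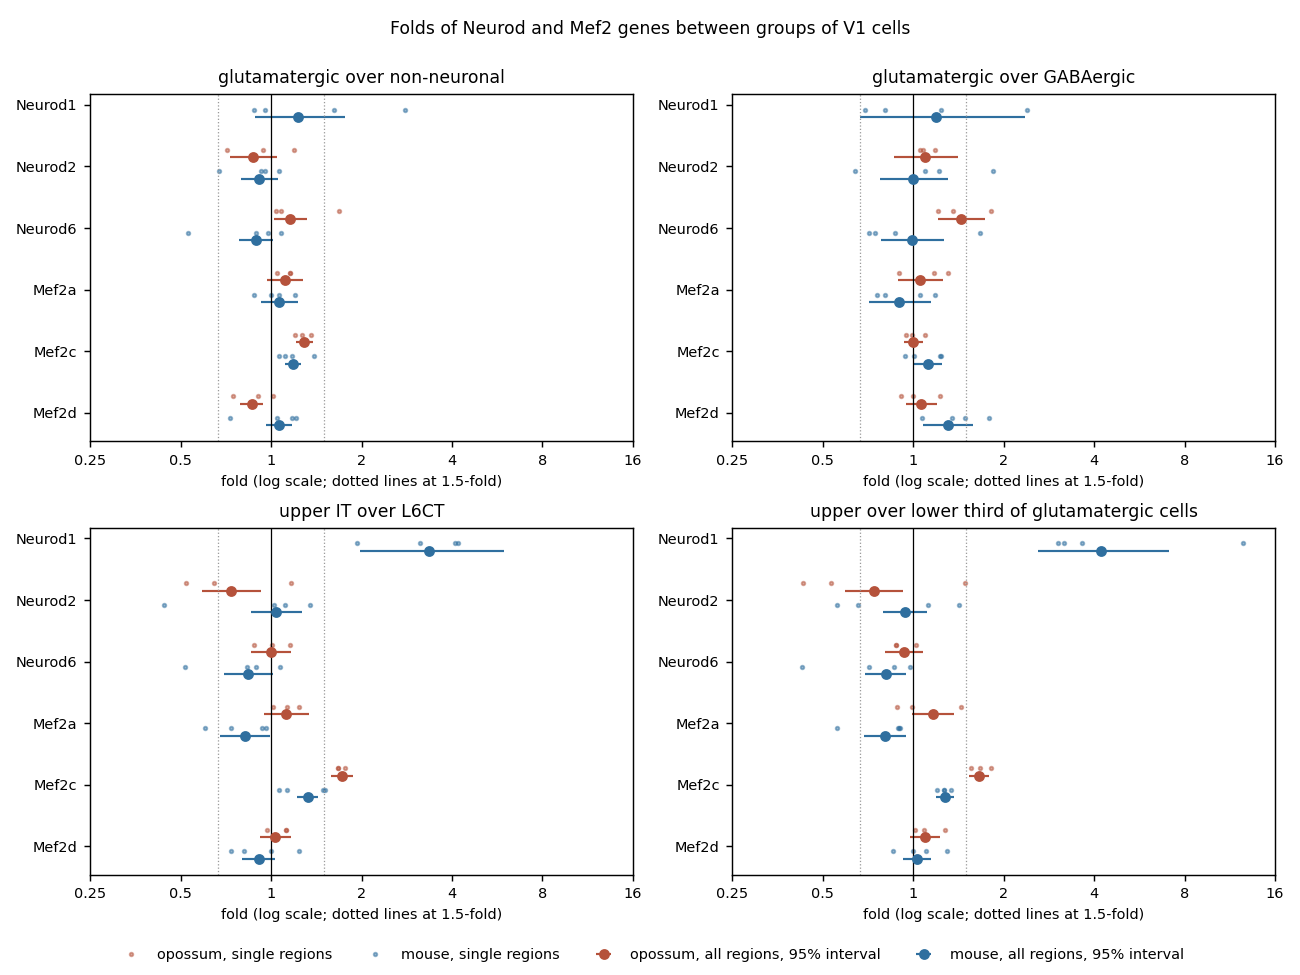
Fold of each gene (horizontal axis, log scale) in 4 comparisons of V1 cells, opossum in red and mouse in blue. Large points with bars are all regions with the 95% interval, small points are single regions, dotted lines mark 1.5-fold, and opossum Neurod1 is left out for want of UMIs. Opossum Mef2c at 1.72 and mouse Neurod1 at 3.36 pass the right dotted line between upper IT neurons and L6CT.

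Subclasses of glutamatergic neurons were compared next. IT neurons project within the cortex, and the uppermost IT subclass (IT_A in the opossum, L2/3 in the mouse) was set against L6CT, the corticothalamic neurons of layer 6. Of the 6 genes, 1 of 5 tested passed 1.5-fold in the opossum and 1 of 6 in the mouse. Opossum Neurod1 had too few UMIs to be tested, so it could not have passed, and the species were not tested against each other. Of all genes tested, 22.3% passed in the opossum and 14.4% in the mouse.

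In the opossum this gene was Mef2c. IT_A stood at 11.4 UMIs per 10000 (regions 11.4, 11.8 and 10.6) and L6CT at 6.63 (regions 6.46, 7.03 and 6.35), so no L6CT region reached an IT_A region. The ratio was 1.72-fold (1.58 to 1.88), with 1.76, 1.67 and 1.67 by region. In the mouse the same ratio was 1.33-fold (1.22 to 1.44), with 7.33 in L2/3 (6.34 to 8.16 across regions) and 5.53 in L6CT (5.21 to 6.27). The lowest L2/3 region lay only just above the highest L6CT region, and within regions the ratio ran from 1.07 to 1.52. In the same cells the oligodendrocyte markers summed to 24.2 in IT_A and 46.8 in L6CT of the opossum, and to 16.4 in L2/3 and 29.2 in L6CT of the mouse. The glutamatergic markers summed to 59 and 44.9 in the opossum and to 41.4 and 37.5 in the mouse, and the part of either list was not tested.

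In the mouse the gene that passed was Neurod1. L2/3 stood at 0.320 UMIs per 10000 from 59 UMIs and L6CT at 0.0951 from 19 UMIs. This was 3.36-fold (1.98 to 5.98), with 3.12, 4.18, 1.94 and 4.10 in the 4 regions. L4 stood beside L2/3 at 0.331 (0.264 to 0.411), and L5PT stood at 0.1 (0.0325 to 0.234), beside L6CT. The deeper IT subclasses L5IT (0.281, 0.103 to 0.613) and L6IT (0.198, 0.105 to 0.339) lay between. The upper level was not particular to upper neurons. Oligodendrocyte precursors stood at 0.341 (0.156 to 0.647), microglia at 0.313 (0.135 to 0.617) and astrocytes at 0.253 (0.138 to 0.424). Pvalb cells stood at 0.221, whereas oligodendrocytes at 0.0964 and Sst cells at 0.0824 were near L6CT. Opossum Neurod1 had 11 UMIs in IT_A and 4 in L6CT, and a difference between them was not detectable at this depth.

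The other genes differed less. Opossum Neurod2 was lower in IT_A than in L6CT, at 0.932 against 1.26, 0.738-fold (0.590 to 0.927), but the regions disagreed at 0.521, 1.17 and 0.647, and without region 2 the ratio was 0.563 and without region 1 it was 0.944. Mouse Neurod2 stood at 1.04-fold (0.855 to 1.27). Neurod6 stood at 1.00-fold in the opossum (0.859 to 1.17) and 0.840-fold in the mouse (0.696 to 1.01). Mef2a pointed in opposite directions, 1.12-fold (0.944 to 1.34) in the opossum with 3 of 3 regions above 1 and 0.819-fold (0.674 to 0.993) in the mouse with 0 of 4, a difference that was not tested. Mef2d stood at 1.03-fold (0.921 to 1.16) and 0.911-fold (0.803 to 1.03).

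The order of the subclasses shows where the Mef2c difference sat. In the opossum, IT_B (12.7, 11.2 to 14.3) and IT_A (11.4, 11.0 to 11.8) did not differ beyond their intervals. They were followed by IT_C (9.42, 8.50 to 10.4), L5PT (7.34, 6.28 to 8.51), L6CT (6.63, 6.13 to 7.15) and L5NP (5.56, 3.93 to 7.63), where the intervals of L5PT, L6CT and L5NP overlapped. In the mouse, L4 (7.66, 7.32 to 8.01), L5NP (7.60, 5.82 to 9.77) and L2/3 (7.33, 6.94 to 7.73) overlapped, L6IT (6.73, 6.12 to 7.39) and L5PT (6.17, 5.50 to 6.90) came next, and L6CT (5.53, 5.21 to 5.86) and L5IT (4.88, 3.99 to 5.91) were lowest among glutamatergic subclasses of over 100 cells. By level alone L5NP, the near-projecting neurons of layer 5, was at the bottom of the glutamatergic order in the opossum and near the top in the mouse. This rests on 39 and 60 cells. The mouse L5NP interval overlapped those of all other mouse glutamatergic subclasses, so its place in that order is not settled.

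Outside the glutamatergic class, opossum Mef2c was 10.6 (9.77 to 11.5) in Pvalb cells and 7.96 (6.86 to 9.19) in Sst cells, and 6.61 (6.01 to 7.25) in oligodendrocytes (OD). The 32 opossum cells labelled as microglia, a cell type in which Mef2c is a known regulator, had 12.5 (9.15 to 16.8). Mouse microglia had 7.05 (6.06 to 8.16) and mouse oligodendrocytes 4.95 (4.49 to 5.46), the latter near the bottom of the mouse order, where only L5IT was lower. Opossum Neurod6 was lowest in Pvalb cells among subclasses of over 100 cells, at 1.28 (0.999 to 1.61), against 2.38 (1.80 to 3.10) in Sst cells. These levels take all cells of a subclass, and only 321 of 591 opossum cells with a GABAergic subclass had a matching class label. In those 321 cells Neurod6 stood at 1.17. The part of cells with other class labels in the difference between Pvalb and Sst was not tested. Opossum Mef2d was highest in oligodendrocyte precursors (OPC, 6.79, 5.48 to 8.31) and endothelial cells (6.77, 4.95 to 9.03).

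Relative depth ran from 0 at the top of layer 2/3 to 1 at the bottom of layer 6 of each region. It was not used to give the labels, although the labels chose the glutamatergic cells and set which end of a region was its top. The upper zone is the top 0.333 of this depth and the lower zone the bottom 0.333. Between glutamatergic cells of these zones, again Mef2c in the opossum and Neurod1 in the mouse passed 1.5-fold and no other gene of the 6 that was tested did. The background was 21% of all genes in the opossum and 14.1% in the mouse. Opossum Mef2c stood at 11.4 UMIs per 10000 in the upper and 6.90 in the lower zone, 1.65-fold (1.53 to 1.78), with 1.67, 1.55 and 1.81 by region. Mouse Mef2c stood at 7.30 and 5.72, 1.28-fold (1.19 to 1.37), and the 4 regions were close together at 1.33, 1.27, 1.19 and 1.26. Mouse Neurod1 had 97 UMIs in the upper and 21 in the lower zone, or 0.348 and 0.0828 UMIs per 10000, 4.20-fold (2.60 to 7.09), with 3.63, 3.17, 3.03 and 12.5 by region. Over cells of every class the mouse Neurod1 ratio was 2.59, and without region 4 it was 3.29 in glutamatergic cells. With the depth divided at its middle instead, opossum Mef2c stood at 1.44-fold and was no longer past 1.5-fold. Cerkl, which overlaps Neurod1 on its strand, had 18 UMIs in the upper and 4 in the lower zone, 4.09-fold (1.35 to 16.6), and its part in the Neurod1 counts was not tested.

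**Figure D3:**
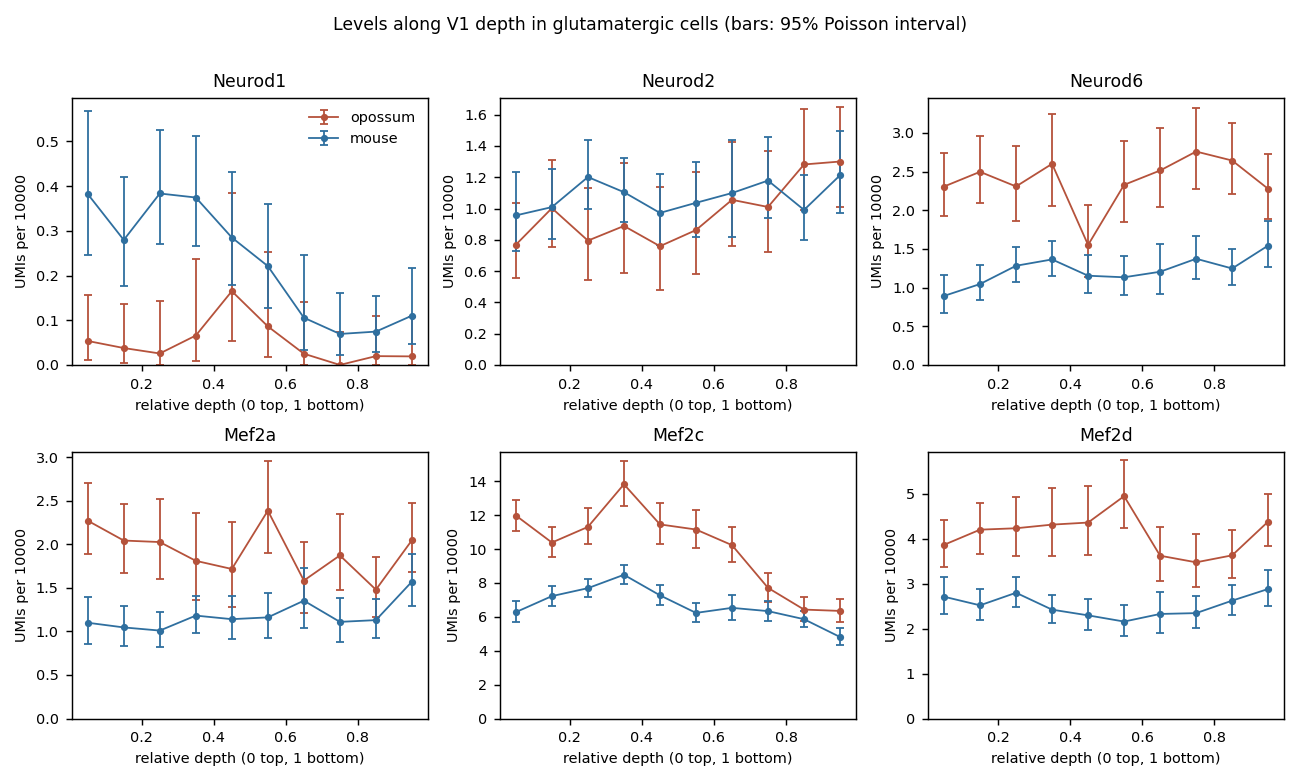
Levels in UMIs per 10000 (vertical axis) of the 6 genes in glutamatergic cells in 10 equal bins of relative depth (horizontal axis, 0 at the top of layer 2/3), opossum in red and mouse in blue, with 95% Poisson intervals. Mef2c peaks in the fourth bin (opossum 13.8, mouse 8.48) and falls to 6.35 and 4.81 at the bottom, and mouse Neurod1 drops past the middle.

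The 10 bins of depth showed the shape. Among glutamatergic cells of both species Mef2c was highest in the fourth bin, with opossum cells at 13.8 (12.5 to 15.2) and mouse cells at 8.48 (7.93 to 9.06). It then fell to 6.35 (5.69 to 7.07) and 4.81 (4.32 to 5.34) in the deepest bin. Over cells of every class the mouse peak stayed in the fourth bin (8.28), whereas the opossum had 11.5 (10.7 to 12.3) in the first bin and 11.4 in the fourth. Above the peak, the uppermost opossum bin stood at 12.0 (11.1 to 12.9) and the uppermost mouse bin at 6.28 (5.67 to 6.93), about as low as the sixth mouse bin at 6.23. Mouse Neurod1 lay between 0.280 and 0.384 in the upper 4 bins, at 0.221 in the sixth and between 0.0693 and 0.110 in the lower 4. Mouse Neurod6 ran the other way, from 0.892 (0.674 to 1.16) at the top to 1.54 (1.27 to 1.86) at the bottom, and its ratio of upper to lower zone was 0.809-fold (0.692 to 0.945), below 1 in 4 of 4 regions. Mouse Mef2a was alike, 0.807-fold (0.687 to 0.948), below 1 in 4 of 4 regions. Opossum Neurod2 stood at 0.743-fold (0.594 to 0.927), but the regions gave 0.430, 1.49 and 0.532, and without region 2 the ratio was 0.462 and without region 1 it was 1.05.

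Other measures moved with depth in the same glutamatergic cells. The lower zone had more UMIs per cell than the upper, with a median of 1926 against 1367 for opossum cells and 1598 against 1186.5 for mouse cells. The summed level of oligodendrocyte markers was 43.5 UMIs per 10000 in the lower and 19.1 in the upper zone of the opossum (3 of 4 tested markers past 1.5-fold), and 29.3 and 15.3 in the mouse (5 of 5). The glutamatergic markers moved the other way, as Mef2c did, with 65.3 in the upper and 39.2 in the lower zone of the opossum (1 of 2 past 1.5-fold) and 43.1 and 37.5 in the mouse (1 of 4). The part of either list in the Mef2c and Neurod1 differences was not tested. Mef2c itself was at 6.61 in opossum cells labelled oligodendrocytes and 6.63 in L6CT cells, and at 4.95 and 5.53 in the mouse.

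Only opossum IT_A and IT_C and mouse L2/3, L4 and L6IT were split at their median depth. Within these subclasses the depth ratio of Mef2c ranged from 0.905-fold in mouse L2/3 to 1.30-fold in opossum IT_C. Cells above the median depth of opossum IT_A stood at 11.3 and cells below it at 11.4, 0.991-fold (0.918 to 1.07), and mouse L4 stood at 7.70 and 7.62, 1.01-fold (0.923 to 1.11). Mouse L2/3 stood at 6.95 and 7.68, with an interval of the ratio of 0.812 to 1.01. Opossum IT_C gave 1.30-fold (1.05 to 1.60) for Mef2c and 1.61-fold (1.18 to 2.20) for Mef2d, each above 1 in 3 of 3 regions. The lower IT_C cells held more UMIs in all, with 234 Mef2c UMIs against 153 in as many upper cells. No share of all genes was computed for these splits. Within mouse L4, Mef2a stood at 0.99 above and 1.47 below the median depth, 0.674-fold (0.530 to 0.852), below 1 in 4 of 4 regions, while Mef2d stood at 2.68 and 2.22, 1.21-fold (1.03 to 1.42), above 1 in 4 of 4. Mouse Neurod1 stood at 1.04-fold (0.660 to 1.64) inside L4 and 1.37-fold (0.794 to 2.38) inside L2/3. Inside L6IT it stood at 2.55-fold (0.711 to 11.3), from 9 and 4 UMIs.

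The share of glutamatergic cells with at least 1 UMI was 60.3% for Mef2c, 37.2% for Mef2d, 25.5% for Neurod6, 18.5% for Mef2a, 11.3% for Neurod2 and 0.663% for Neurod1 in the opossum. In the mouse, in the same order of genes, it was 47.3%, 22.6%, 12.7%, 11.3%, 11.8% and 2.66%. The unthinned opossum Neurod6 share in non-neuronal cells was 18.1%. When each cell was thinned to 300 UMIs, leaving out 80 opossum and 53 mouse glutamatergic cells below that, Mef2c was found in 23.2% (21.6 to 24.9) of opossum glutamatergic cells and 19.4% (17.2 to 21.8) of non-neuronal cells, whose median depths were 1481.5 and 1092 UMIs. Neurod6 was found in 6.60% (5.68 to 7.62) and 6.26% (4.96 to 7.77). In the mouse, Mef2c was found in 17% (16 to 18) of glutamatergic and 14.2% (12.6 to 16) of non-neuronal cells, with medians of 1338 and 1264 UMIs, and Neurod6 in 3.20% and 3.87%. Because many opossum cells with a non-neuronal subclass carried another class label, these shares were not read as expression per cell.

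Known partners and inhibitors of NeuroD were counted next, from a list of 16 bHLH and Id genes of which 11 opossum symbols were found. Between glutamatergic and non-neuronal cells, 0 of 9 tested passed 1.5-fold upward and 5 downward in the opossum, with a list median of 0.486-fold against 0.985 for all genes. In the mouse it was 0 of 10 upward and 4 downward, with a median of 0.891 against 0.986. The share of all genes past 1.5-fold in either direction was 23.7% in the opossum and 12.2% in the mouse. Id1, Id3, Id4 and Hes5, genes known from glia and progenitors, were past the lower limit in both species. Tcf4, the E protein with the most UMIs, stood at 5.75 UMIs per 10000 in opossum glutamatergic and 4.92 in non-neuronal cells, 1.17-fold, and at 4.80 and 4.76 in the mouse, 1.01-fold. Id2, which encodes an inhibitor of E proteins, was 1.79-fold (1.44 to 2.25) higher in glutamatergic than in GABAergic opossum cells and 1.2-fold (0.946 to 1.54) in the mouse. Opossum Tcf12 was lower in glutamatergic cells at 0.989 against 3.59, 0.276-fold (0.238 to 0.320), and mouse Tcf12 stood at 0.587 against 0.5, 1.17-fold (0.811 to 1.76). Between the upper and lower zone in the mouse, 3 of 10 tested genes of the list passed upward and 1 downward (median 1.18-fold). In the opossum 1 of 6 passed upward and 0 downward. Of all genes, 14.1% passed in the mouse and 21% in the opossum, in either direction. Mouse Tcf12 was 1.73-fold (1.36 to 2.21) higher in the upper zone, and a link to Neurod1 was not tested.

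A list of 12 genes held regulators of MEF2 and the family member Mef2b, and 8 opossum symbols of it were found. Between the upper and lower zone, 1 of 7 tested passed upward and 1 downward in the opossum (median 1.09-fold, 0.977 for all genes), and 2 of 10 upward and 0 downward in the mouse (median 1.06, 0.999 for all genes). In either direction this was 2 of 7 and 2 of 10, near the 21% and 14.1% of all genes. Ppp3ca, the catalytic subunit A-alpha of calcineurin, had the most UMIs in both. It stood at 13 UMIs per 10000 in the upper and 5.95 in the lower zone of the opossum, 2.18-fold (2.02 to 2.36), and at 22.5 and 14.9 in the mouse, 1.51-fold (1.45 to 1.57). Ppp3cb, another catalytic subunit, stood at 1.03-fold and 0.810-fold. Hdac9, a class IIa deacetylase, was 1.44-fold (1.23 to 1.69) in the opossum and 1.88-fold (1.54 to 2.31) in the mouse, and Hdac5 was 0.897-fold and 1.04-fold. The opossum gene past the lower limit was Mapk7, which encodes ERK5, at 0.657-fold from 20 and 30 UMIs, with an interval of 0.354 to 1.2.

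Genes linked to MEF2 at synapses were 7, with 6 opossum symbols found. Between the zones, 1 of 5 tested passed upward in the opossum (median 1.254) and 1 of 7 in the mouse (median 1.13), and none passed downward. These shares lie near the 21% and 14.1% of all genes. In both species it was Bdnf, the gene of a neurotrophin released with activity, with an opossum ratio of 2.66-fold (2.15 to 3.32) and a mouse ratio of 1.64-fold (1.30 to 2.09). Homer1, a scaffold of the postsynaptic density, stood at 16.3 against 13 UMIs per 10000 in the opossum (ratio between 1.18 and 1.33), above 1 in 3 of 3 regions, and at 0.798-fold (0.747 to 0.853) in the mouse, below 1 in 4 of 4 regions. Arc had too few UMIs in the opossum and stood at 0.885-fold (0.820 to 0.956) in the mouse. Between glutamatergic and non-neuronal cells, 1 of 6 tested genes of this list passed upward in the opossum and 1 of 7 in the mouse, with 0 downward. That gene was Homer1, at 1.90-fold (opossum) and 1.79-fold (mouse). Of all genes, 23.7% and 12.2% passed in either direction.

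Other transcription factors of cortical glutamatergic neurons were counted in the same way. Of 8 listed, 7 opossum symbols were found, and between glutamatergic and GABAergic cells 4 of 7 passed upward in the opossum (median 1.56-fold) and 2 of 8 in the mouse (median 1.13), with none downward. Of all genes, 21.1% and 23.1% passed in either direction, so the mouse count was near the background. Nfib, a nuclear factor I gene, was 1.56-fold (1.32 to 1.85) for opossum cells and 1.74-fold (1.36 to 2.25) for mouse cells. Along depth the list ran both ways, with 1 gene upward and 3 downward of 6 tested in the opossum and of 7 in the mouse, where 21% and 14.1% of all genes passed. The 3 downward genes, opposite to opossum Mef2c and mouse Neurod1, were Nfia (0.301-fold in the opossum, 0.363-fold in the mouse), Tbr1 (0.493-fold and 0.613-fold) and Nfib (0.548-fold and 0.530-fold).

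The genes most like each member across subclasses were taken by Pearson's r of log2 levels over 14 opossum or 17 mouse subclasses of at least 25 cells, which share their section and differ in depth. Mouse Neurod1 was most like Dusp6 (r = 0.901), Plxnd1 (0.891) and Smim11 (0.843). Opossum Mef2c was most like FAM234B (0.864), GALNT17 (0.830) and PPP3CA (0.809), and mouse Mef2c like Wdr82 (0.746), Prkdc (0.732) and Tspan13 (0.707). Opossum Neurod6 was most like CDH11 (0.939), mouse Neurod6 like Rcl1 (0.930), opossum Neurod2 like DIRAS2 (0.837) and mouse Neurod2 like Mfsd1 (0.881). Opossum Mef2a was most like SCAMP1 (0.759) and mouse Mef2a like Calr (0.791), and opossum Mef2d like HSP90B1 (0.959) and mouse Mef2d like Atp6ap1l (0.869). These are the highest of many r values, some subclasses hold few UMIs, and no gene was named for the same member in both species.

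The rest of each section gave the members a wider frame than V1. In the opossum, Neurod6 was 2.59-fold (2.45 to 2.74) higher in V1 than in the other cells of the section, at 2.23 against 0.861 UMIs per 10000. Mef2c was 2.46-fold (2.40 to 2.53) higher and Mef2d 1.73-fold (1.66 to 1.80) higher, while Neurod1 was lower in V1, at 0.0505 against 0.108, 0.469-fold (0.324 to 0.657). These 4 of 6 passed 1.5-fold, and 28.8% of all genes did. In the mouse 1 of 6 passed, Mef2c at 6.43 against 4.22, 1.52-fold (1.49 to 1.56), and 20.3% of all genes did. Mouse Neurod6 stood at 1.27 in V1 and 1.76 elsewhere, 0.725-fold (0.689 to 0.763), and the other mouse genes lay between 0.871-fold (Neurod2) and 1.06-fold (Mef2d). What each section held besides V1 was not labelled here, so the ratios of the species cannot be set against each other.

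**Figure D4:**
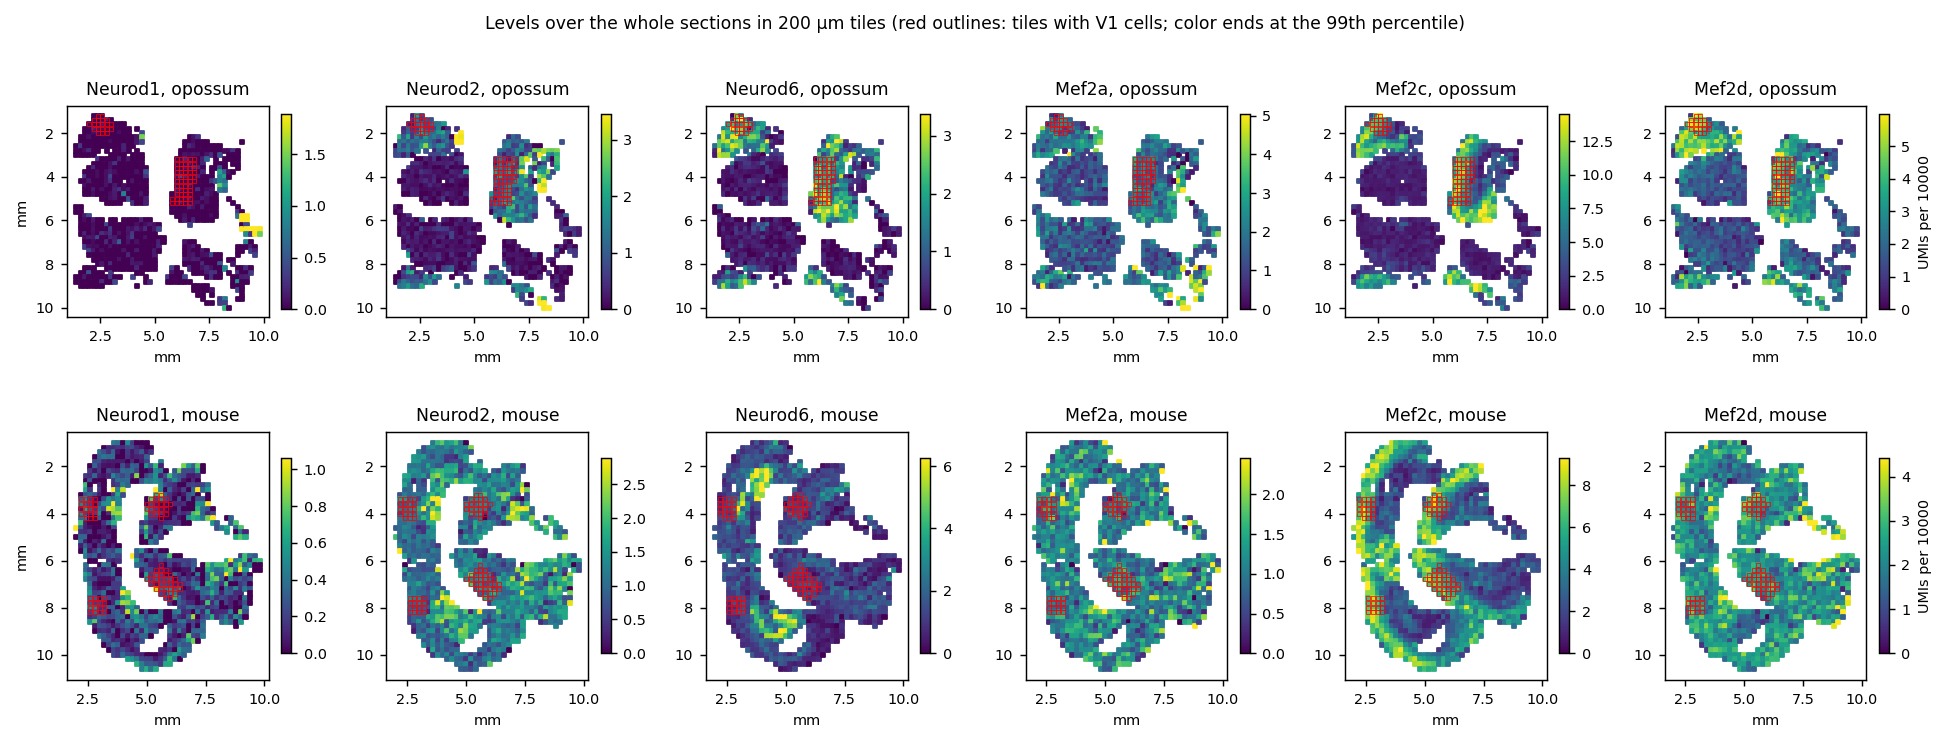
Levels in UMIs per 10000 (color, ending at the 99th percentile) of the 6 genes in tiles of 200 µm over the whole section, opossum above and mouse below, with both axes in mm and tiles that hold V1 cells outlined in red. Opossum Neurod1 is bright in a small group of tiles at the right edge, mouse Neurod6 in inner curved bands, and mouse Mef2c along the outer rim of the section.

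Cut into tiles of 200 µm with at least 20000 UMIs, the opossum section gave 881 tiles and the mouse section 1037. The 5% of tiles highest in a gene were chosen by that gene's own level, so what follows is a description. Opossum Neurod1 was the most concentrated of all, as 45 tiles with 4.85% of all UMIs held 59.3% of its UMIs, and 1 of these tiles held a V1 cell. The genes that led these tiles over the rest were NWD2 (13.1-fold), SYT9 (12.9-fold) and, among those with a symbol, SLC18A3 (8.83-fold), the vesicular acetylcholine transporter. Opossum Neurod2 held 24.2% of its UMIs in its top 45 tiles, none with V1 cells, which were led by C1QL2 (9.27-fold) and SLIT3 (8.08-fold). The top tiles of opossum Mef2a were led by SVEP1 and C1QL2, and EGR2 was among the leading genes of the top tiles of Neurod6, Mef2c and Mef2d.

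In the mouse, Neurod6 had the highest share in its top tiles, with 23% of its UMIs in 52 tiles that held 7.08% of all UMIs. Set against the share of all UMIs, Neurod1 was slightly more concentrated, with 15.9% of its UMIs in 52 tiles that held 4.60%. The top tiles of Neurod6, none with V1 cells, were led by Npy2r (7.30-fold), Lrrc10b (6.24-fold) and Spink8 (5.79-fold), the last a known marker of hippocampal pyramidal neurons of CA1. The top tiles of Neurod1, Neurod2 and Mef2d had Dsp, C1ql2 and Prox1 among their leading genes, all known from dentate granule cells, with Dsp at 8.70-fold, 9.47-fold and 6.14-fold. C1QL2 or C1ql2 was thus a leading gene of the top Neurod2 tiles in both species. Of the top Neurod1 tiles 3 held V1 cells. Mouse Mef2c held 11.7% of its UMIs in its top tiles, of which 6 held V1 cells, led by Rspo1 (3.06-fold).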

How the data were processed

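Stereo-seq was done on 1 section of each species. The authors processed reads with SAW, aligning the tissue by hand; mouse reads went to GRCm39, also named in the submitters' notes, and those of the opossum to a genome of their own whose gene ends were lengthened. V1 regions were drawn by hand. Whether doublets were removed and whether counting used the strand is not given in the sources used here, and none were called here. The authors deposited raw UMI counts per gene and segmented cell, with positions and labels. No cell name was shared by the sections (0).

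Cells with at least 50 genes and 100 UMIs and subclasses of at least 25 cells were used. UMIs were summed over cells. Levels have exact Poisson intervals, shares Clopper-Pearson intervals and ratios exact conditional intervals, all at 95%. They cover counting error only. Median depth was 1326 UMIs per opossum and 1305 per mouse V1 cell. Depth was taken from the smallest rectangle around each region. A gene with at least 50 UMIs over both groups was called at 1.5-fold. Named are the 6 genes, the 3 most like each by r of log2(level + 0.1) among genes of at least 200 UMIs, and at most 4 genes a list by UMIs in V1; Id1, Id3, Id4 in the mouse, Hes5, Mapk7, Hdac9 and Hdac5 in the mouse, Bdnf in the mouse, Arc, Tbr1 and Nfia in the opossum, Cerkl, Gad1 and the leading genes of tiles were named after their values were seen. The members and lists were chosen with earlier results of these data known. Scripts were tested on simulated data. Versions were scipy 1.17.1, numpy 2.4.6, shapely 2.1.2, pandas 2.3.3, matplotlib 3.10.9 and Python 3.11.15. Alternatives were 200 genes and 300 UMIs, first-round labels, matching class labels, 1.25-fold, means over cells, depth divided at its middle, all cells, 5 bins and each region left out. Opossum coordinates and protein sequences are not used here, and some genes counted in the lists are not reported by name.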

Additional observations from a re-analysis of the deposited data

Results flagged for a closer look

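Mef2a between upper IT neurons and L6CT was picked out because every region of the opossum section moved one way and every region of the mouse section the other. The opossum ratio was 1.12-fold (IT_A over L6CT, 1.02 to 1.24 across 3 regions) and the mouse ratio 0.819-fold (L2/3 over L6CT, 0.603 to 0.961 across 4 regions). The difference between the species was not tested, and the opossum interval (0.944 to 1.34) included 1.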

How the results depend on the processing

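With 1 section per species no paired analysis was possible because the groups share no replicates. Of 343 recomputed member ratios, 313 moved by less than the main interval, 30 moved further and 0 reversed a called ratio. Counts of members past the fold changed as follows. At the lower fold of the methods, the counts became 1 for opossum glutamatergic over non-neuronal, 1 over GABAergic, 2 for upper IT over L6CT and 2 for zones of depth, and in the mouse 1 for glutamatergic over GABAergic, 2 for upper IT over L6CT and 2 for zones. With first-round labels, they were 1 and 2 for opossum glutamatergic over GABAergic and upper IT over L6CT, and 3 for mouse glutamatergic over GABAergic (Neurod1 2.83, Mef2a 0.624, Mef2d 1.62). With matching class labels, opossum glutamatergic over GABAergic gave 2. With depth divided at its middle the opossum count for zones was 0, as Mef2c fell to 1.44-fold. When each region was left out in turn, the counts ranged from 0 to 1 for opossum glutamatergic over GABAergic (Neurod6 1.65 without region 1), from 1 to 2 for opossum upper IT over L6CT and zones (Neurod2 0.563 and 0.462 without region 2), from 0 to 1 for mouse glutamatergic over non-neuronal (Neurod1 1.53 without region 1) and from 0 to 2 for mouse glutamatergic over GABAergic (Neurod1 1.86 and Mef2d 1.53 without region 1). Opossum Mef2c stayed between 1.69 and 1.74 and mouse Neurod1 between 3.07 and 3.69 for upper IT over L6CT, and for zones between 1.61 and 1.72 and between 3.29 and 4.67. Opossum Neurod1, with 35 UMIs in V1, has no ratio of use at this depth, and small subclasses have wide intervals.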
